A study of Mus musculus with 9 samples.

Results

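The MYC, MAX and MXD network was examined as a set of 8 genes (*Myc*, *Mycn*, *Max*, *Mxd1*, *Mxd4*, *Mxi1*, *Mnt* and *Mga*) out of the 55401 genes of the deposited tables. The members were picked by gene name, with earlier results of these data known, and each name matched 1 gene. RNA-Seq had been performed on 9 libraries of color-coded splenocytes from a murine acute myeloid leukemia (AML) model, sorted as CD45.1+, EGFRt bright, cKit+ and CD11b dim or negative. All 9 libraries came from Lin- bone marrow cells of C57BL/6-Ly5.1 mice that carried a gammaretroviral vector with *Meis1*, *Hoxa9* and puromycin resistance, together with a lentiviral color code vector. Pooled clones were transplanted into lethally irradiated C57Bl6/J mice. Mouse #15 was sacrificed before leukemia and gave the 3 pre-malignant libraries, 1 each of clone 43BC-D, clone 38BC-D and clone 33BC-D. These clones were sequenced again as de novo expanded libraries from leukemic mice, 38BC-D from mouse #13, 43BC-D from mouse #14 and 33BC-D from mouse #17. The stably expanded libraries all came from the single clone 34BC-D in these 3 leukemic mice. The comparisons therefore ask how the network differed between clones before leukemia, the same clones after expansion, and a clone that had expanded in every recipient.

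MYC is a transcription factor that drives ribosome production, metabolism and cell cycle entry, and its activity is required by many leukemias. MYC and its relative MYCN bind DNA as dimers with MAX, most strongly at the E-box, a short palindromic motif. MXD1, MXD4, MXI1 and MNT compete for MAX, bind the same motif and recruit the SIN3-HDAC corepressor, and MXD1 is known to rise as myeloid cells differentiate. MGA also pairs with MAX and belongs to a Polycomb-type repressor complex.

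Libraries are numbered 1 to 3 within a group, because the labels link a library in the tables to its group but to no single clone or mouse. Each library held between 10379739 and 15551196 reads on genes. P-values measure the spread between libraries of a group. These were 3 clones of 1 mouse in the pre-malignant group and 1 clone in 3 mice in the stably expanded group. A difference of either leukemic group from pre-malignant clones cannot be told apart from the difference between mouse #15 and the leukemic mice. Both leukemic groups came from the same 3 mice. A difference between them cannot be told apart from that between the single stably expanded clone and the de novo expanded clones. Stably expanded and pre-malignant libraries differed in both mouse and clone. De novo expanded library 3 stood apart from the other 2 libraries of its group. The chi-square of gene counts per degree of freedom was 64.7 and 65.9 against these libraries, whereas it was between 10.3 and 26.8 for every other pair within a group. Values that rest on it are given with and without it. The genes behind the sort and the model were present in every library: *Ptprc* (CD45) lay between 310.3 and 384.7 CPM (counts scaled to 1000000 reads on genes per library), *Kit* between 141.9 and 287.4 CPM and *Itgam* (CD11b) between 27.8 and 85.7 CPM, *Hoxa9* between 315.3 and 686.9 CPM and *Meis1* between 535.1 and 1098.8 CPM.

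Promoter sequences are shown because the E-box CACGTG is the motif that all dimers of the network bind. RefSeq promoters on GRCm38.p6, each covering 250 bases before and 50 bases after a transcription start, were found for 7 of the 8 members (9 promoters, 3 of them of *Mxi1*), while *Myc* had no entry. The palindrome, which reads the same on both strands, occurred once each in the promoters of *Max*, *Mxd4* and *Mnt*, and not in the windows of *Mycn*, *Mxd1*, *Mxi1* or *Mga*. Of all 32851 promoters in that table, 7.15% held it. The stretches around the 3 matches are written 5′ to 3′ on the strand of the gene, with the E-box in capitals, and the stretch of *Max* ends with the motif.
Max, chr12:76962246-76962291, minus strand: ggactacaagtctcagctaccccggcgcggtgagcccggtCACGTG
Mxd4, chr5:34187884-34187960, minus strand: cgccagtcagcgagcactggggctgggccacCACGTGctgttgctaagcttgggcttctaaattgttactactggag
Mnt, chr11:74830761-74830846, plus strand: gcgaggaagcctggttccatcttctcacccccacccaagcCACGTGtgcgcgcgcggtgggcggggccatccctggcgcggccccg
The first base of the motif lay 3 bases before the start site in *Max*, 219 bases before it in *Mxd4* and 123 bases before it in *Mnt*. A match describes the letters of these windows and does not show that a protein was bound there.

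Of the 8 members, 7 were expressed in every library. To compare genes with each other, levels were divided by exonic gene length (CPM per kilobase of exon, RPKM). *Myc* was the highest member per length in all 9 libraries, with a median of 59.2 RPKM and a range of 47.7 to 86.4 RPKM. *Max* had a median of 16.8 RPKM, *Mxi1* of 15.4 RPKM, *Mga* of 15.3 RPKM, *Mnt* of 10.5 RPKM and *Mxd4* of 10.5 RPKM. *Mxd1* was the lowest of the 7 in every library, with a median of 6.73 RPKM. The middle of this order was not fixed, since *Max* and *Mga* exchanged ranks between libraries and so did *Mxd4* and *Mnt*. *Mxi1* ranked directly below *Myc* in all 3 stably expanded libraries and in de novo expanded library 3, but below *Max* and *Mga* in the other 5 libraries. Between its lowest and highest library, the level varied 2.06-fold for *Mxd1*, 1.89-fold for *Mxd4*, 1.81-fold for *Myc* and 1.72-fold for *Mxi1*, and 1.35-fold for *Mnt*, 1.33-fold for *Mga* and 1.25-fold for *Max*.

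**Figure D1:**
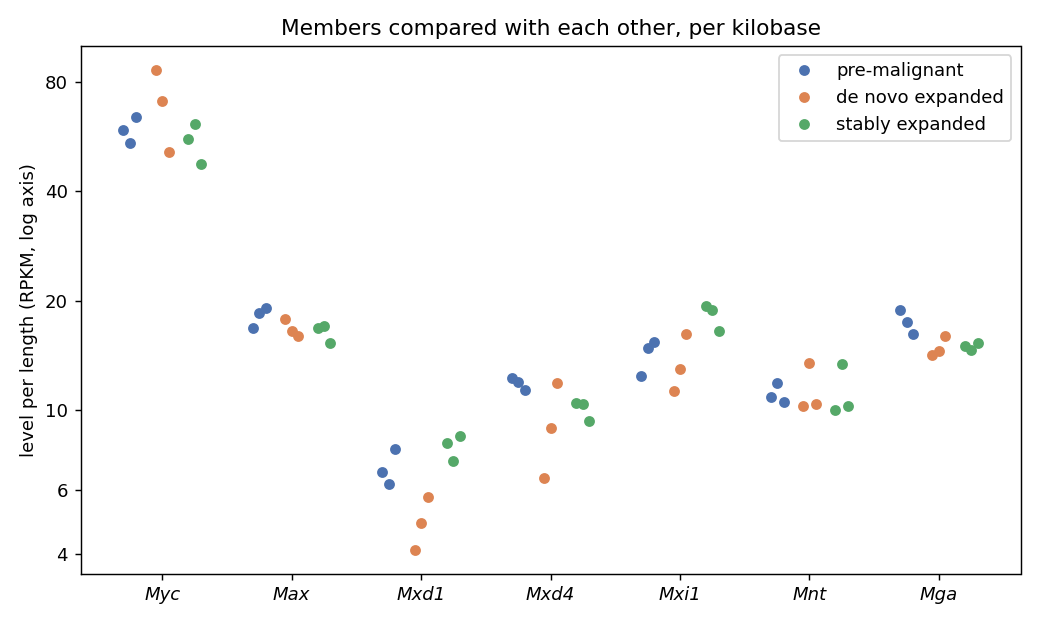
Level per length (RPKM, log axis) of 7 members, 1 point per library, colored by group. *Myc* lies above all other members (47.7 to 86.4 RPKM) and *Mxd1* below them in every library, while *Mxi1* overlaps *Max* and *Mga*. *Mycn* is not drawn because 6 libraries had no read.

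*Myc* (ENSMUSG00000022346.16, GRCm38.p6 chr15:61985391-61990374, plus strand) was at 160.8, 148.1 and 173.7 CPM in pre-malignant libraries 1 to 3, at 234.8, 193.2 and 139.2 CPM in de novo expanded libraries 1 to 3 and at 151.6, 166.4 and 129.6 CPM in stably expanded libraries 1 to 3. De novo expanded libraries 1 and 2 were thus above every other library, but library 3 of that group was below all pre-malignant libraries, and the groups overlapped. Group means were 160.9 ± 12.8 CPM before leukemia, 189.1 ± 48.0 CPM after de novo expansion and 149.2 ± 18.5 CPM after stable expansion (SD, n = 3 each). On the log2 scale of normalized counts, *Myc* differed by 0.22 between de novo expanded and pre-malignant clones (95% interval -0.20 to 0.64), by -0.11 between stably expanded and pre-malignant clones (-0.35 to 0.13) and by -0.31 between stably and de novo expanded clones (-0.75 to 0.13). The limma adjusted p-values were 0.671, 0.567 and 0.891. Without de novo expanded library 3, *Myc* was 0.41 higher than in pre-malignant clones (limma adjusted p = 0.0745, within a range of 0.0745 to 0.933 over all alternatives) and stably expanded clones were 0.51 below de novo expanded clones (log2 difference -0.51, limma adjusted p = 0.0540, range 0.0540 to 1.00). Neither passed the threshold of 0.05.

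*Mycn* (chr12:12936093-12941914, minus strand), which is typically restricted to early progenitors in blood formation, had 6, 1 and 1 reads in pre-malignant libraries 1 to 3 and 0 reads in all 6 leukemic libraries. Up to 3 reads are allowed by a count of 0. The mean of the pre-malignant libraries was below this limit, so 0 reads in a single library cannot be told apart from that mean. Most pre-malignant reads came from library 1, and a difference of *Mycn* between the groups was not tested. *Mycl*, the other MYC family gene, was also barely detected, with at most 1.42 CPM in any library.

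*Max* (chr12:76937269-76962201, minus strand), the common partner, hardly varied, with 60.6, 66.3 and 68.6 CPM in the pre-malignant, 63.8, 59.4 and 57.5 CPM in the de novo expanded, and 60.3, 61.3 and 54.8 CPM in stably expanded libraries 1 to 3. On normalized counts all 3 stably expanded libraries were below all 3 pre-malignant libraries, but the log2 difference was -0.14 (95% interval -0.37 to 0.09) and its limma adjusted p was 0.421. Between de novo expanded and pre-malignant clones it was -0.10 (-0.34 to 0.15), and between stably and de novo expanded clones -0.03 (-0.28 to 0.22), with limma adjusted p-values of 0.762 and 0.983.

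**Figure D2:**
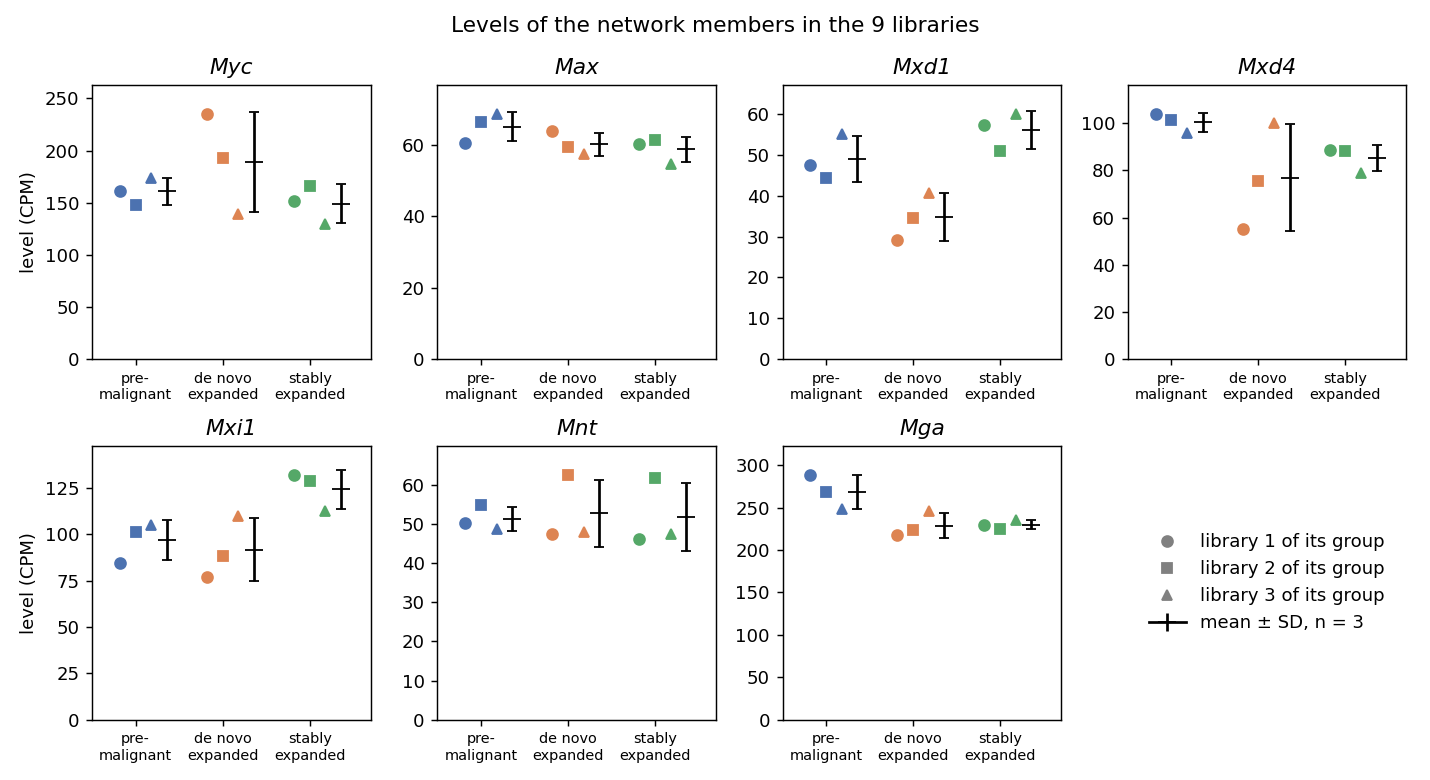
Levels (CPM, axes from 0) of 7 members in the 9 libraries, with the mean ± SD of each group beside the points and 1 symbol per library number. *Mxd1* is lower in the 3 de novo expanded libraries (29.1 to 40.7 CPM) than in all others, and *Mxi1* is higher in the 3 stably expanded libraries (112.4 to 132.1 CPM) than in all others.

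The MXD repressors varied more between groups than *Max* did. *Mxd1* (chr6:86647042-86669161, minus strand) was at 47.6, 44.2 and 55.1 CPM in pre-malignant libraries 1 to 3, at 29.1, 34.5 and 40.7 CPM in de novo expanded libraries 1 to 3 and at 57.2, 51.0 and 59.9 CPM in stably expanded libraries 1 to 3. The de novo expanded libraries lay below all others without overlap. Relative to pre-malignant clones, *Mxd1* was 0.72-fold in de novo expanded clones, a log2 difference of -0.48 (95% interval -0.87 to -0.10), which had an unadjusted p of 0.0208 and a limma adjusted p of 0.406. In stably expanded clones the log2 difference to pre-malignant clones was 0.20 (-0.08 to 0.48, limma adjusted p = 0.353). Stably expanded clones had 1.63-fold the *Mxd1* of de novo expanded clones, a log2 difference of 0.70 (0.32 to 1.09) with an unadjusted p of 0.00306 and a limma adjusted p of 0.891. Leaving out de novo expanded library 3 moved both comparisons of that group past the adjusted threshold, with -0.61 against pre-malignant clones (limma adjusted p = 0.0444, range over alternatives 0.0444 to 0.793) and 0.83 for stably over de novo expanded clones (limma adjusted p = 0.0130, range 0.0130 to 1.00). Library 3 was the highest of its group for *Mxd1*. In these bulk samples, a smaller share of cells with *Mxd1* and less *Mxd1* RNA per cell cannot be told apart.

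*Mxi1* (chr19:53310518-53375810, plus strand), also known as MXD2, was at 84.6, 101.3 and 105.0 CPM in pre-malignant libraries 1 to 3, at 76.9, 88.4 and 110.2 CPM in de novo expanded libraries 1 to 3 and at 132.1, 128.8 and 112.4 CPM in stably expanded libraries 1 to 3. All stably expanded libraries were above all others. The log2 difference between stably expanded and pre-malignant clones was 0.37 (95% interval 0.12 to 0.61), with an unadjusted p of 0.00666 and a limma adjusted p of 0.0651. DESeq2 on the recovered reads gave 0.35 with an adjusted p of 0.0431, the lowest value over the alternatives (0.0431 to 0.216), so that *Mxi1* crossed the adjusted threshold by this tool, below the 2-fold limit. Against de novo expanded clones, stably expanded clones were 0.46 higher (0.10 to 0.82, unadjusted p = 0.0198, limma adjusted p = 0.891), and without de novo expanded library 3 they were 0.61 higher (limma adjusted p = 0.0204, range over alternatives 0.0204 to 1.00). De novo expanded and pre-malignant clones differed by -0.07 (-0.45 to 0.30, limma adjusted p = 0.893), and the sign of this small difference turned without de novo expanded library 1 (0.05).

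*Mxd4* (chr5:34173883-34187720, minus strand) was second to *Mxi1* by median level per length among *Mxd1*, *Mxd4* and *Mxi1*. It was at 103.8, 101.5 and 96.1 CPM in pre-malignant libraries 1 to 3, 54.99, 75.7 and 100.3 CPM in de novo expanded libraries 1 to 3 and 88.8, 88.1 and 79.0 CPM in stably expanded libraries 1 to 3. De novo expanded libraries 1 and 2 were the lowest of all 9 libraries, whereas library 3 lay within the pre-malignant range. The log2 difference to pre-malignant clones was -0.41 in de novo expanded clones (95% interval -0.90 to 0.08, limma adjusted p = 0.502) and -0.23 in stably expanded clones (-0.45 to -0.02, unadjusted p = 0.0351, limma adjusted p = 0.161), the latter without overlap of the libraries. Without de novo expanded library 3, the first difference was -0.63 (limma adjusted p = 0.0338, range over alternatives 0.0338 to 0.805). Stably over de novo expanded clones differed by 0.19 (-0.31 to 0.69, limma adjusted p = 0.919), which turned to -0.03 without de novo expanded library 1.

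*Mnt* (chr11:74830920-74845725, plus strand), the MAX partner that is expressed in most cells, was at 50.2, 54.7 and 48.8 CPM in the pre-malignant, 47.5, 62.4 and 48.0 CPM in the de novo expanded, and 46.1, 61.7 and 47.5 CPM in stably expanded libraries 1 to 3. The 3 group means, between 51.2 and 52.6 CPM, differed by less than the spread within any group. Its log2 differences were 0.05, 0.01 and -0.02 in the 3 comparisons, none with an interval beyond -0.40 or 0.37, and their signs changed with single libraries left out and, for stably expanded over pre-malignant clones, with median centring. *Mga* (chr2:119897228-119969581, plus strand) was at 288.3, 268.5 and 247.8 CPM in the pre-malignant, 217.4, 223.4 and 245.4 CPM in the de novo expanded, and 229.5, 224.5 and 235.2 CPM in stably expanded libraries 1 to 3. In CPM every leukemic library was thus below every pre-malignant library. On normalized counts the log2 difference was -0.21 for de novo expanded clones, whose libraries overlapped the pre-malignant range on this scale (95% interval -0.45 to 0.03, limma adjusted p = 0.475) and -0.22 for stably expanded clones (-0.42 to -0.01, unadjusted p = 0.0388, limma adjusted p = 0.170). The leukemic groups differed by 0.01 in *Mga* (-0.21 to 0.24).

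**Figure D3:**
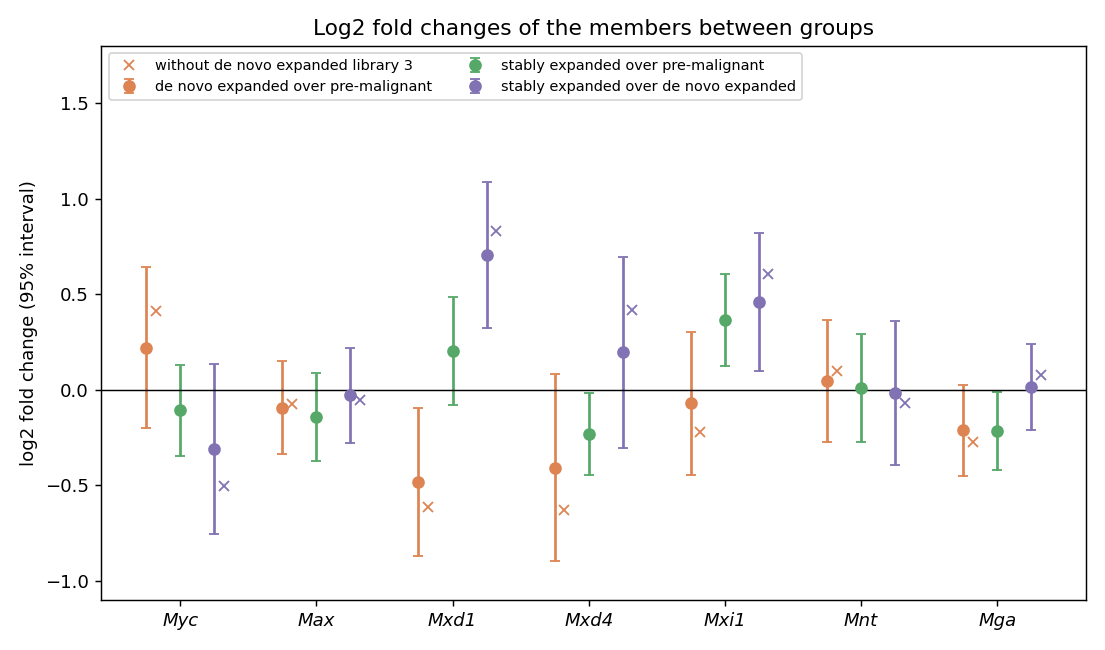
Log2 fold changes of 7 members in the 3 comparisons, with 95% intervals from limma, 1 color per comparison. Crosses show the values without de novo expanded library 3, which moved *Mxd1* from -0.48 to -0.61 and *Mxd4* from -0.41 to -0.63 against pre-malignant clones. *Mxd1* is the only member whose interval excluded 0 in both comparisons with de novo expanded clones.

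Counted over the network, none of the 7 tested members was called (limma adjusted p below 0.05 and at least 2-fold) in any comparison, and edgeR and DESeq2 called none either. For this rule the share of all tested genes called was 0% of 14195 between de novo expanded and pre-malignant clones, 2.75% of 13968 between stably expanded and pre-malignant clones and 0.00727% of 13758 between the leukemic groups. At an unadjusted p below 0.05, 1 member was lower in de novo expanded than pre-malignant clones (*Mxd1*, where 5.26% of all genes were lower), 1 was higher and 2 were lower in stably expanded than pre-malignant clones (*Mxi1*, *Mxd4* and *Mga*, where 13.2% of all genes were higher and 12.3% lower), and 2 were higher in stably than de novo expanded clones (*Mxd1* and *Mxi1*, where 2.72% of all genes were higher). Without overlap between the libraries of the groups, 1 member was lower in the first comparison (8.5% of all genes), 1 was higher and 3 were lower in the second (16.1% and 14.6% of all genes), and 2 were higher in the third (4.66% of all genes). The first 2 comparisons share the pre-malignant libraries, and each leukemic group enters 2 comparisons. Without de novo expanded library 3 and without the fold limit, 2 members passed as lower against pre-malignant clones (*Mxd1* and *Mxd4*, beside 2.13% of all genes) and 2 as higher in stably over de novo expanded clones (*Mxd1* and *Mxi1*, beside 4.66% of all genes).

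Ratios between members within a library do not depend on how libraries are scaled, and compare MYC with the repressors that share MAX. *Myc* over *Mxd1*, as reads plus 1 per kilobase, was 8.79, 8.71 and 8.20 in pre-malignant libraries 1 to 3, 20.9, 14.6 and 8.89 in de novo expanded libraries 1 to 3 and 6.89, 8.49 and 5.62 in stably expanded libraries 1 to 3. De novo expanded libraries 1 and 2 were well above all others, and library 3 was level with the pre-malignant libraries. The ratio of *Myc* over *Mxi1* was 4.77, 3.67 and 4.15, then 7.67, 5.49 and 3.17, and then 2.88, 3.24 and 2.89 in the same order of groups, so that all stably expanded libraries were below all pre-malignant libraries. For *Myc* over *Mxd4* the ratio was 13.3 and 8.0 in de novo expanded libraries 1 and 2, and between 4.33 and 5.89 in the other 7 libraries. Against the sum of *Mxd1*, *Mxd4*, *Mxi1* and *Mnt* per kilobase, *Myc* stood at 1.34 ± 0.11 before leukemia, at 1.87 ± 0.77 after de novo expansion and at 1.15 ± 0.08 after stable expansion (SD, n = 3 each). The wide SD of the de novo expanded group reflects 2.69 and 1.77 in libraries 1 and 2 and 1.16 in library 3. *Myc* over *Max* ranged from 2.95 to 4.87, with the 2 largest values again in de novo expanded libraries 1 and 2. These ratios are descriptions and were not tested. *Mxd3*, which is not a member of the set, is in none of them.

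**Figure D4:**
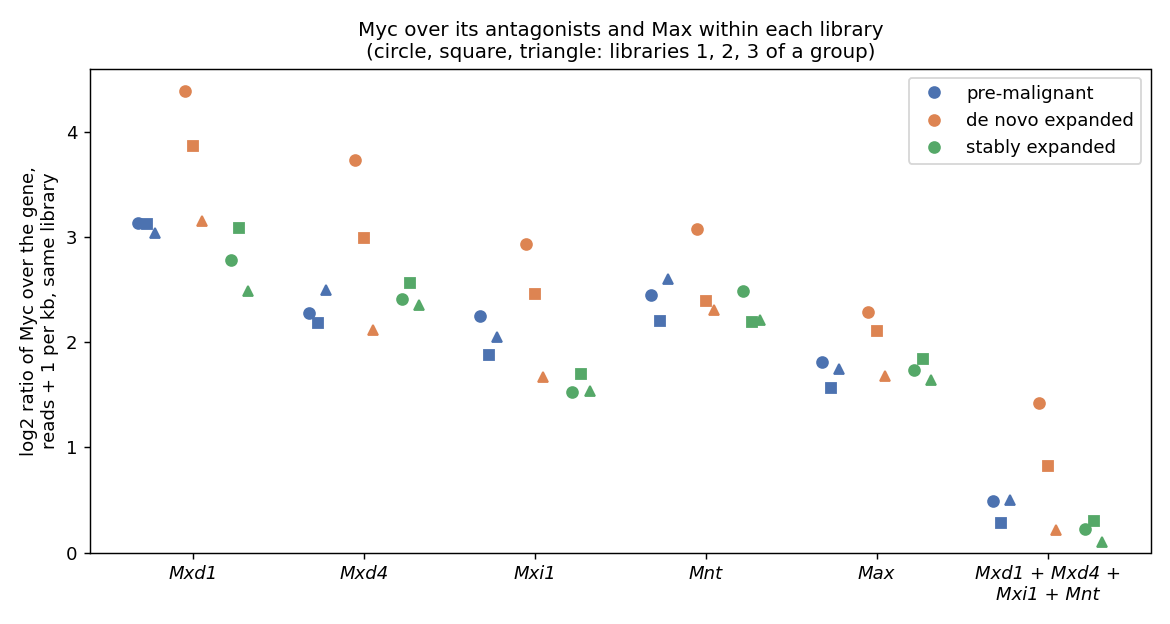
Log2 ratio of *Myc* over each partner or antagonist within a library (reads + 1 per kilobase), 1 symbol per library number and 1 color per group. De novo expanded libraries 1 and 2 (circle and square) have the highest ratios over *Mxd1*, *Mxd4*, *Mxi1* and *Max*, while library 3 (triangle) lies near or below the pre-malignant libraries.

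The pathway around the network was described with 8 fixed lists of 105 genes in all, of which none was called by the rule above in any comparison by limma. The MYC-activated targets (39 genes of ribosome production, nucleotide synthesis, metabolism and cell cycle, all tested) were mostly higher in leukemic clones. Between de novo expanded and pre-malignant clones, 38 of 39 were higher, with a median log2 difference of 0.32 beside 0.01 over all tested genes. At an unadjusted p below 0.05, 16 were higher (5.99% of all genes), but none passed the adjusted threshold by limma. DESeq2 without the fold limit passed *Tfrc* (adjusted p = 0.0198) and *Ran* (adjusted p = 0.0398), beside 0.951% of all genes in either direction. The smallest limma p-values belonged to *Ran* (nuclear transport, 0.49 ± 0.10 SE), *Tfrc* (the transferrin receptor, 0.72 ± 0.16 SE) and *Ldha* (lactate dehydrogenase, 0.53 ± 0.13 SE), each with a limma adjusted p between 0.330 and 0.360. Without de novo expanded library 3, 14 of the 39 passed the adjusted threshold, all higher (2.25% of all genes). Between stably expanded and pre-malignant clones, 31 of 39 targets were higher with a median of 0.12 beside 0.00 over all genes. Here 4 targets passed the adjusted threshold without the fold limit, all higher (4.34% of all genes were higher), namely *Tfrc* (0.83 ± 0.14 SE, limma adjusted p = 0.00869), *Cdc25a* (a cell cycle phosphatase, 0.55 ± 0.13 SE, limma adjusted p = 0.0318), *Ldha* (0.45 ± 0.11 SE, limma adjusted p = 0.0368) and *Ran* (0.39 ± 0.10 SE, limma adjusted p = 0.0389). None of the 100 list genes tested passed in this comparison in 1 fit of all 9 libraries, which ends these calls and those of the lists that follow. With each of the 6 libraries left out in turn, *Tfrc* passed (limma adjusted p between 0.00603 and 0.0337), whereas the other 3 were lost without pre-malignant library 1, without pre-malignant library 2 or without stably expanded library 1, *Ldha* and *Ran* also without stably expanded library 2, and *Cdc25a* also without pre-malignant library 3. *Tfrc* was at 66.2, 75.0 and 58.2 CPM before leukemia and between 89.8 and 134.6 CPM in all leukemic libraries. Between stably and de novo expanded clones, 34 of 39 targets were lower (median -0.19), 2 of them at an unadjusted p below 0.05 (2.11% of all genes). The smallest p belonged to *Nop16*, a nucleolar gene, at -0.42 ± 0.11 SE. This comparison also turned on library 3 of the de novo expanded group. Once it was left out, 20 of the 39 targets were lower and 1 was higher at an unadjusted p below 0.05, with a median of -0.27. Of these targets, 3 passed the adjusted threshold as lower and none as higher, beside 6.72% of all genes in either direction.

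Promoters of the MYC-activated targets held the E-box more often than those of all genes. The list was made of known MYC targets, so this describes the list and is no result of these data. Of the 31 targets with a RefSeq promoter, 11 (35.5%) held CACGTG, beside 8.09% of all 27025 genes in that table. The log2 differences of de novo expanded over pre-malignant clones had a median of 0.35 in the 11 targets with the motif and of 0.33 in the 20 without it. For stably expanded over pre-malignant clones these medians were 0.12 and 0.13. For stably over de novo expanded clones they were -0.21 and -0.16. Higher were all 11 with the motif and 19 of 20 without it in de novo expanded over pre-malignant clones. These counts were 11 of 11 and 15 of 20 for stably expanded over pre-malignant clones, and 1 of 11 and 4 of 20 for stably over de novo expanded clones. Targets with and without the motif were not tested against each other.

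**Figure D5:**
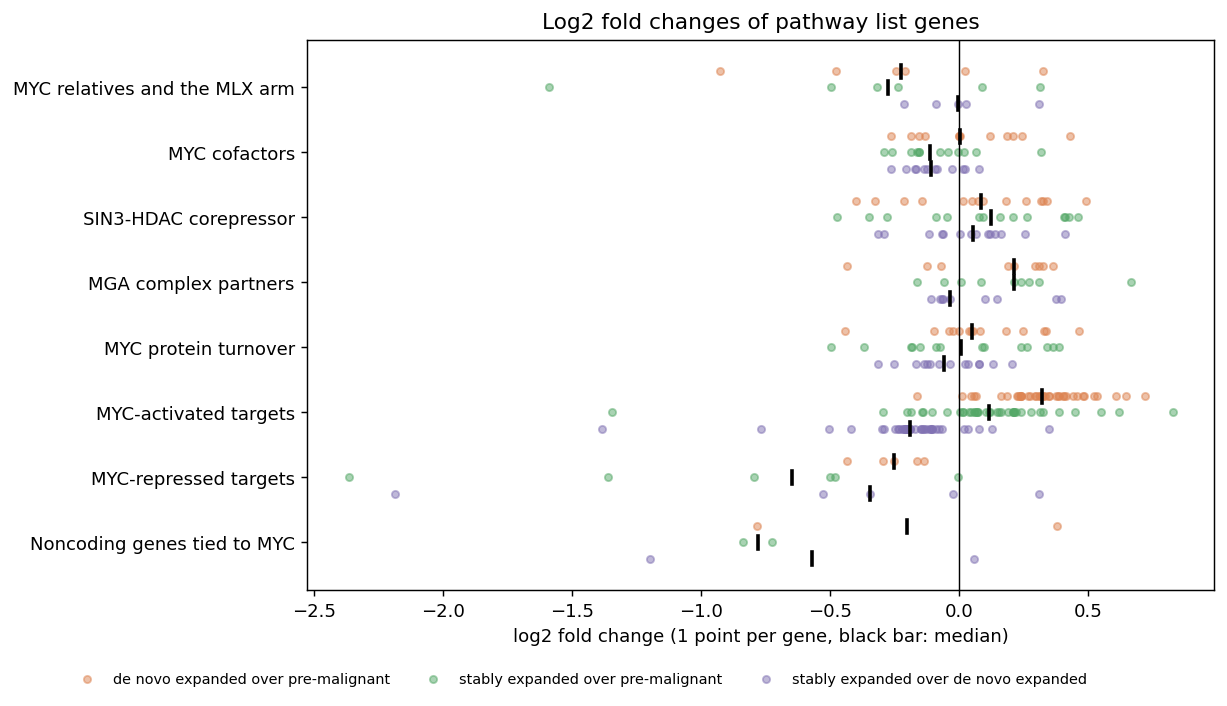
Log2 fold changes of the tested genes of the 8 pathway lists, 1 point per gene and 1 color per comparison, with black bars at the medians. MYC-activated targets lie to the right of 0 in de novo expanded over pre-malignant clones (38 of 39) and to the left in stably over de novo expanded clones (34 of 39).

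Of the 8 MYC-repressed targets, 5 were tested between de novo expanded and pre-malignant clones, with a median of -0.25. Its sign was positive without de novo expanded library 3 (0.53) and with edgeR and DESeq2 (0.08 each), and within that group *Ccnd1* (cyclin D1) ranged from 0.52 to 72.6 CPM. Between stably expanded and pre-malignant clones all 6 tested were lower, with a median of -0.65. *Cdkn1b*, which encodes the cell cycle inhibitor p27, was lower without the fold limit (-0.48 ± 0.11 SE, limma adjusted p = 0.0258, beside 3.61% of all genes lower), and *Ndrg1*, a stress response gene, was at -0.80 ± 0.22 SE (limma adjusted p = 0.0514). DESeq2 without the fold limit passed *Ndrg1* as well (adjusted p = 0.00770, beside 12.3% of all genes in either direction). The call of *Cdkn1b* was lost without pre-malignant library 1 or 3 and without stably expanded library 1 or 2 (highest limma adjusted p of 0.0966). *Cdkn1b* lay between 66.1 and 77.8 CPM in the pre-malignant and between 51.5 and 53.5 CPM in stably expanded libraries 1 to 3.

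The SIN3-HDAC corepressor, through which MXD and MNT proteins act, had 14 tested genes. Between stably expanded and pre-malignant clones 3 of them were higher by adjusted p without the fold limit and none lower, beside 4.34% of all genes higher and 3.61% lower, namely the deacetylase *Hdac1* (0.46 ± 0.12 SE, limma adjusted p = 0.0399) and the histone-binding subunits *Rbbp4* (0.41 ± 0.09 SE, limma adjusted p = 0.0224) and *Rbbp7* (0.41 ± 0.10 SE, limma adjusted p = 0.0375). With each of the 6 libraries left out in turn, *Rbbp4* passed in 3 fits (lost without pre-malignant library 1 or 2 or stably expanded library 1), *Hdac1* in 2 (lost without any 1 pre-malignant library or stably expanded library 1) and *Rbbp7* in 1 (without stably expanded library 1). *Hdac1* was between 49.0 and 50.9 CPM before leukemia and between 64.0 and 79.0 CPM in stably expanded libraries 1 to 3. *Rbbp7* also had the smallest p of the list between de novo expanded and pre-malignant clones (0.49 ± 0.09 SE, limma adjusted p = 0.330). There it passed by DESeq2 without the fold limit (adjusted p = 0.0118). Among the 9 partners of the MGA complex, *Yaf2* was higher in stably expanded than pre-malignant clones (0.66 ± 0.13 SE, limma adjusted p = 0.0146, beside 4.34% of all genes), with 37.1 to 38.2 CPM against 21.3 to 25.3 CPM, and passed in all fits with 1 library left out except that without pre-malignant library 1 (limma adjusted p = 0.0526), while *Mga* itself was lower at an unadjusted p only. *Rybp*, the homolog of *Yaf2*, was at -0.43 ± 0.21 SE between de novo expanded and pre-malignant clones (limma adjusted p = 0.488).

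Of 14 genes of MYC protein turnover, *Set*, an inhibitor of the phosphatase PP2A, was higher in stably expanded than pre-malignant clones (0.36 ± 0.09 SE, limma adjusted p = 0.0319), and *Trpc4ap*, an adaptor of a ubiquitin ligase for MYC, was lower (-0.50 ± 0.10 SE, limma adjusted p = 0.0193). These 2 of 14 stood beside 4.34% of all genes higher and 3.61% lower, and nothing is read from so small a count. *Trpc4ap* did not pass without pre-malignant library 2 or 3, and *Set* did not pass with any 1 library left out (limma adjusted p between 0.0529 and 0.117). Both had the same sign between de novo expanded and pre-malignant clones (0.46 and -0.44), where their limma adjusted p-values were both 0.380. None of the 12 MYC cofactors passed in a comparison by limma, with *Trrap*, a scaffold of acetyltransferase complexes, at -0.29 ± 0.09 SE (limma adjusted p = 0.0676) and *Ruvbl2*, a helicase-like ATPase, at 0.32 ± 0.10 SE (limma adjusted p = 0.0852) between stably expanded and pre-malignant clones. In the arm of the network that pairs with MLX in place of MAX, *Mlxip* (MondoA) was at -0.32 ± 0.09 SE (limma adjusted p = 0.0567), *Mlx* at 0.31 ± 0.12 SE (limma adjusted p = 0.129) and *Arrdc4*, a MondoA target, at -0.50 ± 0.19 SE (limma adjusted p = 0.137) in the same comparison. DESeq2 without the fold limit passed *Mlxip* (adjusted p = 0.0226) and *Trrap* (adjusted p = 0.0314) there, both lower, beside 12.3% of all genes in either direction.

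*Mir17hg*, the host transcript of the miR-17-92 cluster and a known MYC target, was at 10.5, 13.0 and 6.69 CPM in the pre-malignant, at 14.4, 13.2 and 10.3 CPM in the de novo expanded, and at 4.96, 5.76 and 5.49 CPM in stably expanded libraries 1 to 3. The stably expanded libraries were below all others. Stably over de novo expanded clones differed by -1.20 ± 0.21 SE (unadjusted p = 0.000675, limma adjusted p = 0.891), and DESeq2 called it with an adjusted p of 0.00928. In that comparison DESeq2 passed 0.254% of all genes without the fold limit. Without de novo expanded library 3 the difference was -1.33 (limma adjusted p = 0.0139, beside 6.72% of all genes passing in either direction). *Mir17hg* was at -0.84 ± 0.28 SE between stably expanded and pre-malignant clones (limma adjusted p = 0.0873). There DESeq2 passed it without the fold limit (-0.91, adjusted p = 0.0311, beside 12.3% of all genes in either direction).

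Genes whose levels followed a member most closely over the 9 libraries were found by Pearson's r on log2(CPM + 1) among 13402 genes. The 9 values share libraries and groups, and such r are the highest of many, so they serve as a description. *Myc* was followed by *Utp14a*, a gene of ribosomal RNA processing (r = 0.97, and 0.96 without the 2 libraries farthest from the median of *Myc*), and by *Gngt2* (r = 0.97 and 0.94). *Mxi1* was followed by *Pnp*, a purine salvage enzyme (r = 0.99 and 0.99), and *Fam50a* (r = 0.97 and 0.96), *Mxd4* by *Skap2* (r = 0.97 and 0.92) and *Pml* (r = 0.97 and 0.84), and *Mga* by *Gm17068* (r = 0.97 and 0.94) and *Kmt2c*, a histone methyltransferase (r = 0.97 and 0.96). *Max* was followed by *Tgfb1* (r = 0.95 and 0.85) and *Wdsub1* (r = 0.94 and 0.89). The values were lower for *Mxd1*, with *Ppp1r12a* (r = 0.93 and 0.72) and *Rnf11* (r = 0.90 and 0.65), and for *Mnt*, with *Zfp36l2* (r = 0.88 and 0.78) and a gene model without a symbol (r = 0.88 and 0.63). Within the network, the largest r among 21 pairs was 0.75 between *Mga* and *Mxd4* (Spearman's rho = 0.93) and between *Mxd1* and *Mxi1* (rho = 0.73). It was -0.73 between *Myc* and *Mxd1*, -0.70 between *Myc* and *Mxd4* and -0.65 between *Myc* and *Mxi1*, with weaker rank correlations (rho = -0.52, -0.47 and -0.53).

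Several genes listed as markers of other cell types also differed between the groups. Whether the sorted clones or other cells expressed them was not tested. The summed level of 7 late neutrophil genes was 113.3 to 168.5 CPM before leukemia, 103.8, 131.8 and 457.4 CPM in de novo expanded libraries 1, 2 and 3, and 455.5 to 3517 CPM in stably expanded libraries 1 to 3, largely from *Ngp* and *Camp*, whereas the defining *Ly6g* had at most 13 reads. Of the 5 tested, 4 were called higher in stably expanded than pre-malignant clones and 1 was lower, beside 2.75% of all genes called in either direction. The stably expanded libraries, all above the pre-malignant libraries in this sum, were also above them in *Mxi1*. De novo expanded library 3 had the highest *Mxi1*, *Mxd1* and neutrophil sum of its group. The order was not the same for *Mxd1* in other libraries. Stably expanded library 3 had the lowest sum (455.5 CPM) and *Mxi1* (112.4 CPM) of its group but the highest *Mxd1* (59.9 CPM). Pre-malignant *Mxd1* (44.2 to 55.1 CPM) was above that of de novo expanded library 3 (40.7 CPM), whose sum was higher. The summed level of 7 B cell genes, mainly *Ighm*, was 214.3 to 255.4 CPM before leukemia. It was 74.6 to 203.6 CPM after de novo expansion and 85.0 to 102.3 CPM after stable expansion. In stably expanded against pre-malignant clones, 4 of 7 tested were called lower, beside 2.75% of all genes called in either direction. *Cd79b* went the other way, with a mean of 7.21 CPM before leukemia and 14.1 CPM after stable expansion. Erythroid genes summed to 16.4 to 32.2, 1.83 to 12.9 and 2.02 to 22.5 CPM, macrophage genes to 212.6 to 281.3, 107.1 to 255.0 and 204.3 to 258.3 CPM, T cell genes to at most 3.63 CPM and platelet genes to at most 3.04 CPM, with *Gp1bb* and *Ppbp* without a read in any library. The macrophage sum came almost wholly from *Adgre1*, *Csf1r* and *Vcam1*, while *C1qa*, *C1qb*, *C1qc* and *Mertk* had at most 13 reads in any library. This sum also hid opposite changes. *Csf1r* had a mean of 127.6 CPM before leukemia and 39.7 CPM after stable expansion, whereas *Vcam1* had 42.1 and 108.2 CPM. The part of these cells or genes in the values of the network was not tested.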

How the data were processed

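The members and gene lists were chosen with earlier results of these data known. Per the labels and the paper's methods, the authors sorted thawed splenocytes, prepared libraries from total RNA with the SMARTer Stranded Total RNA-Seq Pico kit, and processed reads with Trim Galore 0.6.4, STAR 2.6.1d and featureCounts 1.6.4 on GRCm38.p6 with GENCODE annotation. The authors deposited 3 tables, 1 per pairwise comparison, whose values are read counts divided by DESeq2 size factors, a signal here called normalized counts. Their own fold changes and p-values were not used. Division by the smallest step of each library recovered whole reads for at least 99.995% of nonzero values within 0.05 reads, identical between tables. CPM and RPKM were computed from these reads.

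The main test was limma 3.58.1 (R 4.3.3) with a moderated trend (empirical Bayes), two-sided, on log2 values of the deposited normalized count + 1. Genes entered where these counts averaged at least 10 over 6 libraries, with Benjamini-Hochberg adjustment over all genes tested. Genes were called at an adjusted p below 0.05 and at least 2-fold. The fits were tested on simulated data. Fold changes are differences of mean log2(normalized count + 1), which understates changes of low genes. Intervals are 95%, and a count of 0 allows up to 3 reads, which covers counting error only. Alternatives included edgeR 4.0.16 and DESeq2 1.42.0 on recovered reads. Named were all members, the called genes of each list or else the 3 smallest p, the 2 genes most like each member, and the sort and design genes. Genes named outside this rule were chosen after their values were seen. Levels, ratios and plots were made with pandas 2.3.3 and matplotlib 3.10.9. One item of the cell model is not reported here.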

Additional observations from a re-analysis of the deposited data

How the results depend on the processing

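No paired analysis was possible because the labels link the columns to a group but not to a clone or mouse, so the libraries of the groups share no known number. Members called stayed at 0 in every comparison under pseudocounts of 0.1 and 5, no filter, a mean of at least 50, median centring, CPM, edgeR, DESeq2, 1 fit of all 9 libraries, no fold limit, and each library left out. The alternatives without a fold limit other than limma on all 6 libraries were chosen after seeing the data. Among them DESeq2 passed 1 member (*Mxi1*) between stably expanded and pre-malignant clones, and leaving out single libraries gave 0 to 2 members in both comparisons with de novo expanded clones, each time 2 without de novo expanded library 3 and 0 otherwise.

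Pathway list genes called, 0 by the main rule, numbered 0 to 3 between de novo expanded and pre-malignant clones with single libraries left out (3 without de novo expanded library 3, *Ccnd1*, *Ccnd2* and *Pvt1*). Without the fold limit they numbered 0 to 20, where DESeq2 gave 3 (*Rbbp7*, *Tfrc* and *Ran*). Between stably expanded and pre-malignant clones they numbered 1 with no filter (*Ccnd1*), 0 to 2 with single libraries left out (2 without stably expanded library 2, *Ccnd1* and *Ccnd2*), 11 without the fold limit by limma and by edgeR, 16 by DESeq2, and 2 to 12 with single libraries left out. That count fell to 2 without pre-malignant library 1, 3 without pre-malignant library 2, 5 without pre-malignant library 3 and 4 without stably expanded library 1, and in 1 fit of all 9 libraries no list gene passed. Between stably and de novo expanded clones they numbered 1 with DESeq2 with or without the fold limit (*Mir17hg*), 0 to 3 with single libraries left out (3 without de novo expanded library 3, *Ccnd2*, *Ndrg1* and *Mir17hg*), and 0 to 8 without the fold limit. The cause was not tested. Over all genes, calls rose from 0 to 215 and from 1 to 511 in the comparisons with de novo expanded clones without de novo expanded library 3, DESeq2 called 62, 531 and 32 genes in the 3 comparisons, and the fit of all 9 libraries called 5, 6 and 2.

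Of 315 alternative log2 differences of members, 296 kept their sign and their side of the adjusted threshold, 5 newly passed it and 14 turned sign. The sign of *Mnt* turned between stably expanded and pre-malignant clones with median centring (-0.011). The other turns came with single libraries left out, with ranges of -0.22 to 0.051 for *Mxi1* and -0.077 to 0.12 for *Mnt* between de novo expanded and pre-malignant clones, -0.11 to 0.080 for *Mnt* between stably expanded and pre-malignant clones, and -0.055 to 0.012 for *Max*, -0.030 to 0.42 for *Mxd4*, -0.14 to 0.11 for *Mnt* and -0.025 to 0.074 for *Mga* between stably and de novo expanded clones. Levels by normalized counts in place of CPM (21 values) and ratios with a pseudocount of 0.1 (18 values) moved by less than 1 SD. Mean normalized counts below 10 kept 1 member, *Mycn*, untested.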

Other observations

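*Pvt1*, a noncoding gene that starts 47611 bases beyond the end of *Myc* (chr15:62037986-62378096, plus strand), was counted with 33, 58 and 40 reads in pre-malignant libraries 1 to 3, 126, 114 and 0 reads in de novo expanded libraries 1 to 3 and 10, 66 and 19 reads in stably expanded libraries 1 to 3. The 2 libraries with the most *Pvt1* were also those with the highest *Myc*. The library without a *Pvt1* read, de novo expanded library 3, still had 139.2 CPM of *Myc*. Between de novo expanded and pre-malignant clones the log2 difference of *Pvt1* was -0.78 ± 1.73 SE, and without library 3 it was 1.53 (limma adjusted p = 0.0352, chosen for a closer look after its values were seen).

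The D-type cyclin genes *Ccnd1* and *Ccnd2* followed the same libraries. *Ccnd2*, from the list of MYC-activated targets, was at 15.9, 19.0 and 15.3 CPM in pre-malignant libraries 1 to 3, at 61.2, 50.5 and 1.57 CPM in de novo expanded libraries 1 to 3, and at 2.28, 20.7 and 5.68 CPM in stably expanded libraries 1 to 3. *Ccnd1*, from the list of MYC-repressed targets, was at 10.1, 13.8 and 22.9 CPM, at 72.6, 52.0 and 0.52 CPM, and at 0.39, 23.0 and 2.12 CPM in the same order. *Ndrg1* was at 81.0 and 73.2 CPM in de novo expanded libraries 1 and 2, at 14.4 CPM in library 3, and between 19.5 and 53.4 CPM elsewhere. These genes were therefore high in de novo expanded libraries 1 and 2 and low in library 3 whether their list was of activated or of repressed targets. *Yaf2* and *Hdac1* had the opposite order, with 26.9, 24.3 and 38.2 CPM and with 41.8, 45.8 and 73.8 CPM in de novo expanded libraries 1, 2 and 3, and library 3 was within or close to the range of the stably expanded libraries for both. *Ccnd2* and these descriptions of single libraries were chosen after their values were seen. With all 3 de novo expanded libraries, *Ccnd2* was at 0.06 ± 1.24 SE over pre-malignant clones (limma adjusted p = 0.992), and without library 3 it was at 1.74 (limma adjusted p = 0.000558).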
